A study of Rattus norvegicus with 20 samples.

Results

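The genes described here are the Cyp1 enzymes and the aryl hydrocarbon receptor system in rat liver: Cyp1a1, Cyp1a2 and Cyp1b1, the receptor gene Ahr, its partner Arnt, and the feedback genes Ahrr and Tiparp. They were taken as every probe set on the array that the platform annotation assigns to 1 of these symbols alone, which gave 9 probe sets for 7 genes of 14217 named genes (Cyp1a1, Cyp1a2, Cyp1b1, Arnt and Ahrr with 1 each, Ahr and Tiparp with 2 each) out of 31042 probe sets tested. No filter on dim signal was used, so all 9 were tested.

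The samples were 20 liver RNA samples from Wistar Han rats (Crl:WI (Han)), each hybridised to 1 Affymetrix Rat230_2 array, in 4 groups of 5. Pregnant females, 11 to 12 weeks old when received at gestation day 2, were given PBDE-47 in corn oil by oral gavage. PBDE-47 is a brominated diphenyl ether, one of a family of flame retardants that persist in tissue. Dosing ran daily from gestation day 6 to postnatal day 4. The groups were corn oil alone (vehicle), 0.1, 15 and 50 mg/kg per day, given as solutions of 0, 0.02, 3 and 10 mg/mL at 5 mL/kg. No group carried a genetic change. RNA came from the left lateral lobe at postnatal day 4, and 100 ng of it was amplified per array. The labels do not say whether each liver was a dam's or a pup's, on which the sex-linked genes below bear, nor how animals were spread over litters. The p-values below therefore measure the spread between these arrays. Values are on the log2 scale of the deposited, normalised intensities, in which 1 unit is a doubling of signal. Probe sets differ in how brightly they report a transcript, so no level is compared between genes.

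The aryl hydrocarbon receptor is a transcription factor of the basic helix-loop-helix PAS family that waits in the cytosol in a chaperone complex. When it binds a flat aromatic ligand such as a dioxin, it moves to the nucleus, pairs with Arnt and binds DNA elements with the core GCGTG. Cyp1a1, Cyp1a2 and Cyp1b1 are its classical target genes and encode haem enzymes that oxidise polycyclic aromatic compounds. In the adult liver Cyp1a2 is made constitutively and Cyp1a1 is nearly silent until induced. Ahrr encodes a repressor that competes for Arnt, and Tiparp an ADP-ribosyltransferase that restrains the receptor. Both are target genes of the receptor as well. The liver's other main xenobiotic receptors, CAR and PXR, drive a different battery headed by the Cyp2b, Cyp2c and Cyp3a families.

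The tissue label was matched by the arrays, and the sex label was not. Albumin (Alb) lay at 14.73 to 14.82 and transthyretin (Ttr) at 14.05 to 14.23 on all 20 arrays. The fetal liver genes Afp, at 14.21 to 14.34, and H19, at 13.99 to 14.22, were in the top percentile of probe sets on every array too. The labels give the sex as female throughout. Yet Xist, the RNA that coats the inactive X chromosome of females, was among the dimmest probe sets: its 4 probe sets lay between 2.49 and 3.62 over the 20 arrays. The Y-linked genes Eif2s3y, at 8.79 to 9.48, and Uty, at 8.65 to 9.20, were bright on every array, while Sry, which is not a liver transcript, lay at 3.99 to 4.49. No array stood apart from the others in these genes. All 20 had the male pattern, which the liver of a dosed female would not have. Whether the label describes the dosed dam is not stated. Skeletal muscle or exocrine pancreas transcripts were raised as well on 9 of the 20 arrays, by a chosen cut: a list mean over 2 log2 units above the lowest array. They were vehicle replicate 2, 0.1 mg/kg replicates 1, 2, 4 and 5, 15 mg/kg replicates 3 and 5, and 50 mg/kg replicates 1 and 4. Under this cut 50 mg/kg replicates 3 and 5 were kept, with skeletal muscle means of 6.23 and 5.37 beside 4.43 on the lowest array. The fits below without the 9 arrays therefore still hold some muscle signal at 50 mg/kg. Array medians ran from 5.61 to 5.65.

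To show what the receptor could bind close to each gene, promoter windows of 250 bases before and 50 after the start site were read from RefSeq for GRCr8, where 6 of the 7 genes had an entry and Cyp1a1 had none. The core GCGTG was searched on both strands and is printed in capitals, as GCGTG or, on the other strand, CACGC. Of 27456 promoter windows of this length, 31.1% held GCGTG and 3.74% held it at least 3 times. The longer form TNGCGTG, which overlaps the core, was in 5.12%. The 4 windows below are those of both feedback genes and of both Cyp1 enzymes with an entry. Ahrr lies at chr1:30821969-30822268 (plus strand), Tiparp at chr2:152063519-152063818 (plus), Cyp1b1 at chr6:21094315-21094614 (plus) and Cyp1a2 at chr8:66978100-66978399 (minus).
Ahrr: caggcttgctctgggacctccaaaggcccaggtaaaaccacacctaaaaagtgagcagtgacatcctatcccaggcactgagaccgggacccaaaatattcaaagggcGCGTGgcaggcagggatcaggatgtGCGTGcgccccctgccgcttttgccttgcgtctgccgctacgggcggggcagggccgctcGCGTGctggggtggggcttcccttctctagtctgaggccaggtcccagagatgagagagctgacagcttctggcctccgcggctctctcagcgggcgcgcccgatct
Tiparp: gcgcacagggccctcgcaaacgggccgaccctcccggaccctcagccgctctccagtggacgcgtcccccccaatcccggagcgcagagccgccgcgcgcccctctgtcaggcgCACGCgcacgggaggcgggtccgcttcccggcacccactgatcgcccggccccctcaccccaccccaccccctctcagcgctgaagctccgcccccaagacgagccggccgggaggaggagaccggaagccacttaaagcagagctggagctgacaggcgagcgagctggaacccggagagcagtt
Cyp1b1: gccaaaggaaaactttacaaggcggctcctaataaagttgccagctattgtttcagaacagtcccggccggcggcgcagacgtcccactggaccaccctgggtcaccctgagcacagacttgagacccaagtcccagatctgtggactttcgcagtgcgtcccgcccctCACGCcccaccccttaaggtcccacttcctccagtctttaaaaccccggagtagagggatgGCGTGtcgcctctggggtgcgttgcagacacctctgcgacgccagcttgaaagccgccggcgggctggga
Cyp1a2: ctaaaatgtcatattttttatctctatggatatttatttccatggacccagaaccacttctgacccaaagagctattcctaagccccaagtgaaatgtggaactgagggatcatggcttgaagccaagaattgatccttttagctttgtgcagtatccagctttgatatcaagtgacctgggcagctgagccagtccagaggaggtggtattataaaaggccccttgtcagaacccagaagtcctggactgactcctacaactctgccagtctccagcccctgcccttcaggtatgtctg

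The Ahrr window held 3 copies of the core, with first bases 142, 117 and 57 bases before the start site, and 1 of them was the longer TNGCGTG. The Cyp1b1 window held 2, of which 1 was the longer form, the Tiparp and Arnt windows held 1 each, and those of Cyp1a2 and Ahr held none. A match is only a run of letters, and its absence says nothing of sites outside the window. In the RefSeq annotation Cyp1a1 and Cyp1a2 are neighbours on 1 chromosome with 0 genes between them.

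Cyp1a1, the enzyme whose induction is the usual reporter of receptor activation, rose strongly at both upper doses. On the 5 vehicle arrays its probe set (1370269_at) read 7.94, 7.52, 7.80, 7.88 and 7.21, and at 0.1 mg/kg it read 7.48, 7.49, 7.49, 8.05 and 7.36. The 15 mg/kg arrays read 9.97, 10.89, 9.61, 9.92 and 10.45. Those at 50 mg/kg read 11.33, 10.76, 10.68, 11.34 and 11.51. The vehicle and 0.1 mg/kg arrays overlapped, and every array of the 2 upper doses lay above every array of the 2 lower ones. Such a full separation upward was shown by 1.78% of all probe sets for 50 mg/kg against vehicle, 1.57% for 15 mg/kg, and 1.83% and 0.899% for these doses against 0.1 mg/kg. The group means were 7.67 ± 0.30 in vehicle, 7.57 ± 0.27 at 0.1, 10.17 ± 0.50 at 15 and 11.13 ± 0.38 at 50 mg/kg (SD, n = 5 each).

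Against vehicle, Cyp1a1 was 11.0-fold higher at 50 mg/kg, a log2 difference of 3.46 (SE 0.22, limma adjusted p = 1.43e-08), and it ranked first of all 31042 probe sets both by p and by size. The rise at 15 mg/kg was 5.66-fold, a difference of 2.50 (SE 0.22, limma adjusted p = 3.18e-06). At 0.1 mg/kg the difference was -0.094, with a 95% interval of -0.55 to 0.36 (limma adjusted p = 0.966). Cyp1a1 was the 1 member probe set of 9 called at 50 mg/kg, where 0.934% of all probe sets were called, and the 1 called at 15 mg/kg, where 0.116% were. No member was called at 0.1 mg/kg, and neither was any other probe set: limma called 0 (0%) there, while 2134 probe sets had an unadjusted p under 0.05. The 3 comparisons share the vehicle arrays. With those 9 arrays of mixed tissue left out, Cyp1a1 was still called at 50 mg/kg (3.28, limma adjusted p = 0.00168) and at 15 mg/kg (2.56, adjusted p = 0.0142).

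Set against the 0.1 mg/kg arrays in place of the vehicle arrays, Cyp1a1 was 3.55 higher at 50 mg/kg (limma adjusted p = 1.74e-08) and 2.60 higher at 15 mg/kg (adjusted p = 1.67e-06). It was again the only member of the 9 called in either comparison, where 0.644% and 0.0902% of probe sets were called. Between 15 and 50 mg/kg its mean was a further 0.96 higher (95% interval 0.50 to 1.41), or 1.94-fold, and 3 of the 5 arrays at 50 mg/kg lay above all 5 at 15 mg/kg. Its unadjusted p of 0.000279 ranked 11th of all probe sets, but limma's adjusted p was 0.655 and no probe set was called between these doses (0%, with 1749 under an unadjusted p of 0.05). The contrast over the dose order, which weighs the 4 groups as evenly spaced steps, gave 1.30 log2 units per step for Cyp1a1 (SE 0.069, limma adjusted p = 5.92e-10). Without the 9 arrays with other tissue, the 15 against 0.1 mg/kg difference of 2.78 was no longer called (adjusted p = 0.253), with a single 0.1 mg/kg array left that is assumed to vary like the other groups.

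**Figure D1:**
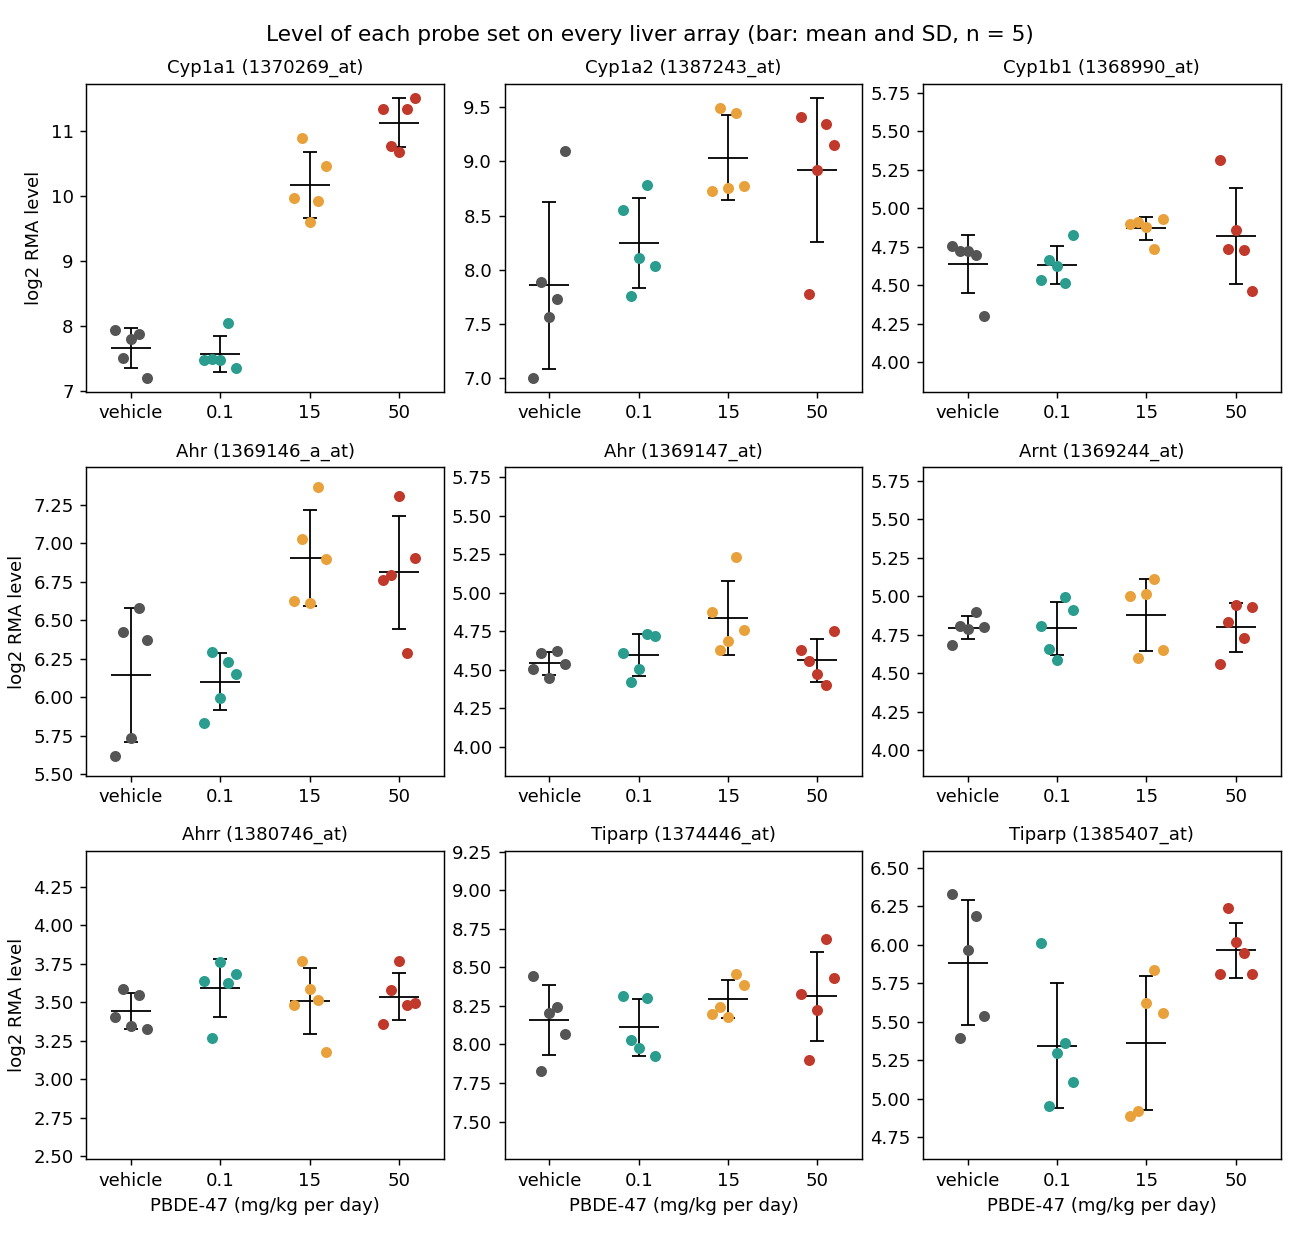
Log2 level (vertical axis, RMA values) of each of the 9 probe sets on every array against dose group in mg/kg per day, with a point per array and a bar for the mean and SD of 5 arrays. Cyp1a1 separates the 2 upper doses (9.61 to 11.51) from the 2 lower ones (7.21 to 8.05), while Cyp1b1, Arnt, Ahrr and the brighter Tiparp probe set overlap in all groups; each panel has its own axis range.

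Cyp1a2, the constitutive family member of the hepatocyte, was higher on average at both upper doses but with wide scatter and no call. Its probe set (1387243_at) read 7.01, 7.89, 7.57, 7.73 and 9.09 on the vehicle arrays and 8.55, 7.76, 8.11, 8.79 and 8.04 at 0.1 mg/kg. At 15 mg/kg it read 8.72, 9.49, 8.75, 9.44 and 8.77. At 50 mg/kg it read 9.41, 7.78, 8.92, 9.34 and 9.15. Vehicle replicate 5 was as high as the upper dose groups and 50 mg/kg replicate 2 as low as vehicle, so the groups overlapped. The difference from vehicle was 1.06 at 50 mg/kg (95% interval 0.36 to 1.76, 2.09-fold, limma adjusted p = 0.155), 1.18 at 15 mg/kg (0.48 to 1.87, adjusted p = 0.196) and 0.39 at 0.1 mg/kg (-0.31 to 1.09, adjusted p = 0.867). Between 15 and 50 mg/kg it was -0.12 (-0.81 to 0.58), an interval that spans both directions, and it was -0.60 without the 9 arrays with other tissue (adjusted p = 0.999).

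Whether Cyp1a2 was called depended on single arrays and on the processing. Without vehicle replicate 5 the difference at 50 mg/kg was 1.37 and was called (limma adjusted p = 0.0313), and without 50 mg/kg replicate 2 it was 1.35 and was called (adjusted p = 0.0424). Over the dose order Cyp1a2 gave 0.40 per step and missed the threshold (SE 0.11, limma adjusted p = 0.0674), and it passed without either array (0.49, adjusted p = 0.00996, and 0.48, adjusted p = 0.0141). With all 20 arrays kept, that slope also passed when probe sets with a mean under 6 were left out (0.40, adjusted p = 0.0408) and with array weights (0.42, adjusted p = 0.0257), which did not call the difference at 50 mg/kg. Neither array was outlying in Cyp1a1, which read 7.21 on vehicle replicate 5, the lowest of its group, and 10.76 on 50 mg/kg replicate 2.

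**Figure D2:**
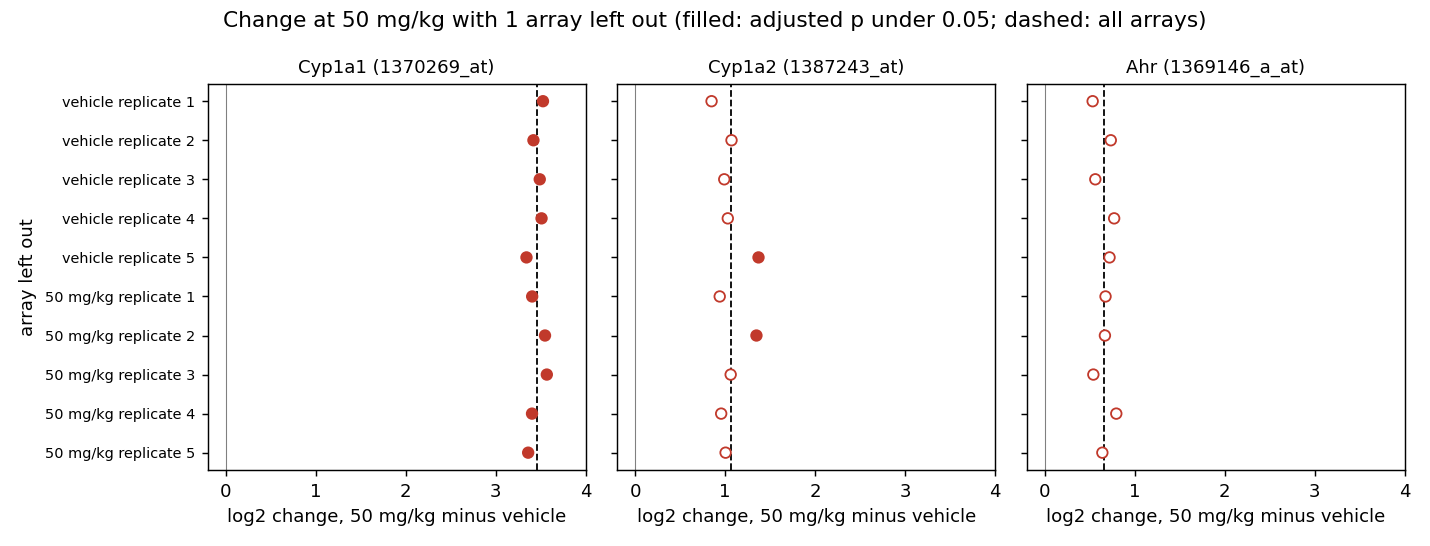
Log2 difference between 50 mg/kg and vehicle (horizontal axis) for Cyp1a1, Cyp1a2 and the brighter Ahr probe set with each array named on the vertical axis left out in turn; filled points had a limma adjusted p under 0.05 and the dashed line is the value with all arrays. Cyp1a1 was called each time, Cyp1a2 only without vehicle replicate 5 (1.37) or 50 mg/kg replicate 2 (1.35), and Ahr never.

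Whether both neighbouring Cyp1a genes moved by unequal amounts was tested on the difference between their log2 values within each array. Cyp1a1 rose by 2.40 log2 units more than Cyp1a2 at 50 mg/kg (exact two-sided permutation test over 252 splits, p = 0.00794, the smallest this design allows, adjusted over 3 doses 0.0238). At 15 mg/kg it rose by 1.33 more (exact p = 0.0238, adjusted 0.0357), and at 0.1 mg/kg the value was -0.48 (exact p = 0.373). The SD of the within-array difference was 1.06 in vehicle and 0.49 at 50 mg/kg, and vehicle replicate 5 had both the lowest Cyp1a1 and the highest Cyp1a2 of its group. The 15 mg/kg value lost its call without any one of vehicle replicates 2, 3 and 4 or 15 mg/kg replicates 1, 2, 3 and 5, with values of 1.19 to 1.43 and adjusted p of 0.0595 to 0.0714, and without the 9 arrays with other tissue the values were 2.51 and 1.19 with exact tests too small to pass (adjusted p = 0.171 and 0.214).

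Cyp1b1, the family member made mainly outside hepatocytes, was dim and did not pass the test at any dose. Its probe set (1368990_at) lay at 4.30 to 4.75 in vehicle (median 4.72), 4.51 to 4.83 at 0.1 mg/kg, 4.74 to 4.93 at 15 mg/kg and 4.46 to 5.32 at 50 mg/kg. The 4 groups overlapped, and 4 of 5 arrays at 15 mg/kg lay above all vehicle arrays. Its differences from vehicle were 0.18 (95% interval -0.067 to 0.43) at 50, 0.23 (-0.018 to 0.48) at 15 and -0.0070 (-0.25 to 0.24) at 0.1 mg/kg, with limma adjusted p of 0.559, 0.446 and 0.998.

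Ahr itself, the receptor, was measured by 2 probe sets, whose values had r of 0.506 over the 20 arrays by level and 0.415 within groups. On the brighter one (1369146_a_at) the vehicle arrays read 5.62, 6.43, 5.74, 6.58 and 6.37, and the 0.1 mg/kg arrays 5.83, 6.29, 6.00, 6.23 and 6.15. The 15 mg/kg arrays read 6.63, 7.03, 6.61, 7.36 and 6.90. Those at 50 mg/kg read 6.76, 6.79, 7.30, 6.28 and 6.90. All 5 arrays at 15 mg/kg lay above all vehicle arrays, the separation that 1.57% of probe sets showed, and 4 of 5 did at 50 mg/kg, where replicate 4 fell within the vehicle range. The difference was 0.76 at 15 mg/kg (95% interval 0.35 to 1.17, 1.69-fold, limma adjusted p = 0.149) and 0.66 at 50 mg/kg (0.26 to 1.07, 1.58-fold, adjusted p = 0.123), and neither was called. For 0.1 mg/kg the difference was -0.045 (-0.45 to 0.36, adjusted p = 0.987).

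The group means of the brighter Ahr probe set were 6.146 in vehicle, 6.100 at 0.1, 6.905 at 15 and 6.809 at 50 mg/kg. They moved up only between 0.1 and 15 mg/kg and not at each step. The contrast over the dose order gave 0.28 per step (SE 0.062, limma adjusted p = 0.025) and was called. With Cyp1a1 this made 2 of the 9 member probe sets called in this contrast, where 1.45% of all probe sets were called. That call was lost without any one of vehicle replicate 1 (adjusted p = 0.0554), vehicle replicate 3 (0.0648), 50 mg/kg replicate 3 (0.0606) or 50 mg/kg replicate 5 (0.0588), and without the 9 arrays with other tissue (0.38 per step, adjusted p = 0.167). The dimmer Ahr probe set (1369147_at) lay at 4.45 to 4.62 in vehicle, 4.42 to 4.73 at 0.1, 4.63 to 5.23 at 15 and 4.40 to 4.76 at 50 mg/kg. It too had all 5 arrays at 15 mg/kg above vehicle, by 0.29 (limma adjusted p = 0.255), but at 50 mg/kg its difference was 0.019 (-0.19 to 0.22, adjusted p = 0.962) and its slope 0.030 per step (adjusted p = 0.724).

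Arnt, the partner that the receptor needs to bind DNA, had overlapping values in all groups. Its probe set (1369244_at) ran from 4.56 to 5.11 over the 20 arrays, with group means of 4.80 ± 0.076 in vehicle and 4.80 ± 0.16 at 50 mg/kg (SD, n = 5 each). Only 34.6 to 42.8% of probe sets lay at or below this level, so it was rather dim and a small change may not be measurable. The difference at 50 mg/kg was 0.0014 with a 95% interval of -0.22 to 0.22 (limma adjusted p = 0.998), and at 15 mg/kg it was 0.081 (-0.14 to 0.30, adjusted p = 0.792).

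The feedback genes, which rise with Cyp1a1 in many settings of receptor activation, did not pass the test at any dose. Ahrr (1380746_at) lay at 3.18 to 3.77 on all arrays, a level that only 8.06 to 20.9% of probe sets lay at or below, so a small change there may not be measurable. Its differences from vehicle were 0.093 (95% interval -0.13 to 0.31) at 50, 0.063 (-0.16 to 0.28) at 15 and 0.15 (-0.068 to 0.37) at 0.1 mg/kg. The brighter Tiparp probe set (1374446_at) was well lit, at 7.83 to 8.44 in vehicle and 7.90 to 8.68 at 50 mg/kg. Its difference at 50 mg/kg was 0.16 (-0.11 to 0.42, 1.11-fold, limma adjusted p = 0.666), an interval whose upper end is 1.34-fold.

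The dimmer Tiparp probe set (1385407_at) gave another pattern, also without a call. It read 6.33, 5.39, 5.97, 6.18 and 5.54 in vehicle and 6.01, 4.95, 5.29, 5.36 and 5.11 at 0.1 mg/kg. At 15 mg/kg it read 4.89, 4.92, 5.62, 5.83 and 5.56, and at 50 mg/kg 5.81, 6.24, 6.02, 5.95 and 5.81. Its means were lower at the 2 lower doses than in vehicle, by 0.54 at 0.1 mg/kg (limma adjusted p = 0.651) and 0.52 at 15 mg/kg (adjusted p = 0.344), and near vehicle at 50 mg/kg (0.083, adjusted p = 0.917). Without the 9 arrays with other tissue the 15 mg/kg difference was -0.79 (adjusted p = 0.404). The 2 Tiparp probe sets therefore gave different estimates at 15 mg/kg, 0.14 and -0.52, and the difference between them was not tested.

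**Figure D3:**
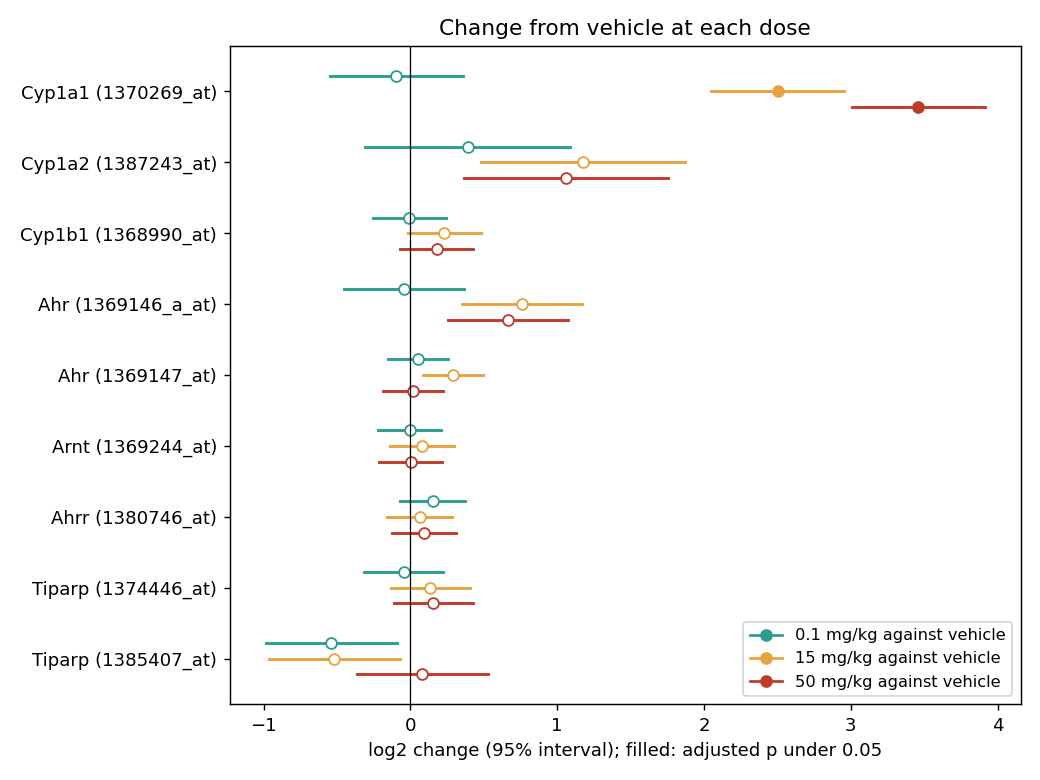
Log2 difference from vehicle (horizontal axis) with its 95% interval for the 9 probe sets at 0.1, 15 and 50 mg/kg per day; filled points had a limma adjusted p under 0.05. Only the Cyp1a1 points at 15 (2.50) and 50 mg/kg (3.46) are filled, and the intervals of Cyp1a2 and of the brighter Ahr probe set at those doses lie above 0 without passing the adjustment.

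Of 19 other target genes of the receptor listed, 14 had a probe set. Of these, 0 passed the test against vehicle in either direction at 50 or at 15 mg/kg. Over all probe sets 0.934% and 0.116% were called at these doses, so 0 calls in a list of this size is near the background. The median difference of the 14 at 50 mg/kg was -0.019, beside 0.0090 over all probe sets. For 2 of the 14, Gsta1 and Htatip2, all 5 arrays at 50 mg/kg lay above all vehicle arrays, as for 1.78% of all probe sets. For 0 of the 14 they lay wholly below, as for 1.18%. Nqo1, which encodes a quinone reductase, was higher by 0.63 (limma adjusted p = 0.213), and the glutathione transferase Gsta1 by 0.36 (adjusted p = 0.0813). Htatip2 differed by 0.36 (adjusted p = 0.11) and the interleukin receptor gene Il1r1 by -0.50 (adjusted p = 0.226), with -0.50 and -0.25 on its other 2 probe sets. Aldh3a1, an aldehyde dehydrogenase gene of the classical battery, was at -0.061 (adjusted p = 0.812), Nfe2l2, the regulator of antioxidant genes, at 0.17 (0.412), Fmo1 at -0.076 (0.928) and Inmt at 0.023 (0.958). Both Aldh3a1, with means of 4.05 in vehicle and 3.99 at 50 mg/kg, and Inmt, with 4.43 and 4.46, were dim. A small change in them may not be measurable. Against 0.1 mg/kg in place of vehicle, where 0.583% of all probe sets were called higher, 2 of the 14 rose at 50 mg/kg. They were Nqo1 by 1.06 (limma adjusted p = 0.0271) and Htatip2 by 0.47 (adjusted p = 0.0398). Over the dose order, where 0.96% were called higher, Gsta1 rose by 0.13 per step (adjusted p = 0.0351) and Htatip2 by 0.14 (0.0388). These 4 calls were near the threshold: without 50 mg/kg replicate 4 all were lost (adjusted p of 0.0531 to 0.0902), as they were without the 9 arrays with other tissue, and most other single arrays ended at least 1 of them. Gsta1 passed at 50 mg/kg against vehicle after another quantile normalisation (0.40, adjusted p = 0.0418), with probe sets of a mean under 6 left out (0.36, adjusted p = 0.048) and with array weights (0.39, adjusted p = 0.0499), and Htatip2 with the actin covariate (0.43, adjusted p = 0.0334). Ugt1a6 and Gsta2 had no single-symbol probe set and were not analysed here.

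Of 21 listed genes of the cytosolic complex and the coregulators around the receptor, 18 were measured. At 50 mg/kg, where 0.348% of all probe sets were called lower, 0 rose and 1 fell. The list median there was -0.041, and 0 passed at 15 mg/kg, where 0.116% of all probe sets were called. The 1 was Crebbp, a histone acetyltransferase, whose brightest probe set fell by 0.27 (limma adjusted p = 0.0362) while its other 4 lay between -0.088 and 0.023, none of them called. Its call was lost without any one of vehicle replicates 2 to 5 or 50 mg/kg replicates 2 to 5 (-0.28 to -0.25, adjusted p of 0.0512 to 0.115), with the replicate block (adjusted p = 0.0711), and without the 9 arrays with other tissue (-0.28, adjusted p = 0.311). The chaperone Hsp90ab1 was at -0.052 and 0.058 on its 2 probe sets (adjusted p = 0.93 and 0.964), Ptges3 (p23) at 0.066 (0.666), Nrip1 at 0.14 (0.522) and Ep300 at -0.20 (0.256). Of 18 listed bHLH-PAS relatives, 15 were measured and 0 passed at either dose, near the shares over all probe sets (0.934% at 50 and 0.116% at 15 mg/kg). Those with the smallest p at 50 mg/kg were Npas3 at -0.34 (adjusted p = 0.181), Npas1 at -0.19 (0.315), and the clock genes Per2 at 0.38 (0.407) and Per3 at 0.30 (0.451). Npas3 and Npas1 were dim, with vehicle means of 3.42 and 3.37, so small changes in them may not be measurable.

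Some of the genes that support P450 enzymes or clear the same ligands passed the test. Of 14 listed, 11 were measured, and the list median at 50 mg/kg was 0.16. At that dose, where 0.586% of all probe sets were called higher, 5 rose and 6 did not pass. At 15 mg/kg, where 0.0934% were called higher, 3 of the 5 rose too, and 0 fell at either dose. Alas1, the first enzyme of haem synthesis, rose by 1.52 at 50 mg/kg (limma adjusted p = 1.35e-05), Ephx1, the microsomal epoxide hydrolase, by 1.19 (adjusted p = 3.81e-05) and the glucuronosyltransferase Ugt2b1 by 0.80 (7.3e-05). Por, which passes electrons to all microsomal P450 enzymes, rose by 0.82 (0.0186), and the cytochrome b5 gene Cyb5a by 0.30 (0.0095). Por lost its call without any one of vehicle replicates 2, 3 and 4 or 50 mg/kg replicates 4 and 5 (0.74 to 0.80, adjusted p up to 0.0572), and without the 9 arrays with other tissue 3 of the 11 genes were called at 50 mg/kg and 1 at 15 mg/kg. Of 22 listed target genes of CAR and PXR, which share Alas1, Ephx1, Ugt2b1 and Por with that list, 20 were measured, 12 rose and 0 fell at 50 mg/kg, with a median of 0.81. The shares of all probe sets called higher were again 0.586% at 50 and 0.0934% at 15 mg/kg. At the middle dose 8 rose and 0 fell, and without the 9 arrays the calls were 6 at 50 and 3 at 15 mg/kg. Cyp2c7 rose by 3.21 (limma adjusted p = 4.93e-05) and Cyp2c6v1 by 1.80 (1.49e-07) at 50 mg/kg, both from a family of close copies whose probe sets can read each other.

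**Figure D4:**
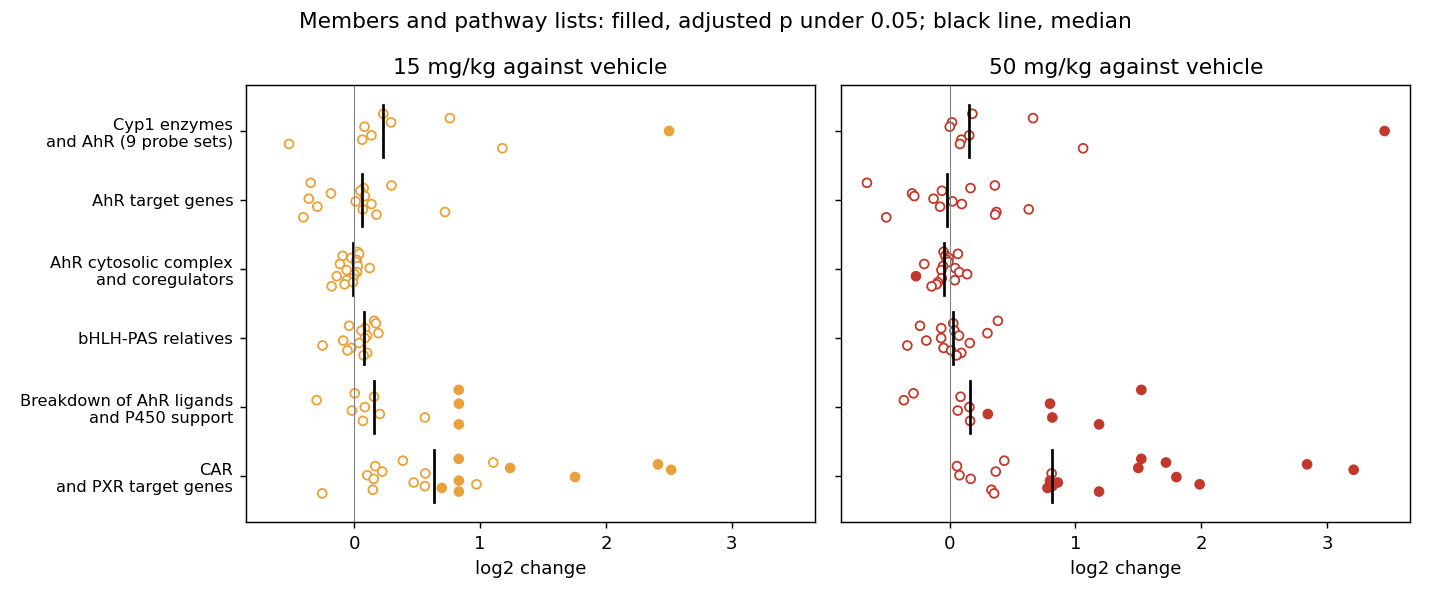
Log2 difference from vehicle (horizontal axis) at 15 mg/kg (left) and 50 mg/kg (right) for the 9 member probe sets and for each measured gene of the 5 pathway lists, each list gene by its brightest probe set; filled points had a limma adjusted p under 0.05 and black lines are medians. In the list of receptor target genes no point is filled, while 12 of 20 CAR and PXR target genes are filled on the right and 8 on the left. Of all probe sets, 0.934% were called at 50 and 0.116% at 15 mg/kg.

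The 5 genes whose levels followed Cyp1a1 most closely over the 20 arrays included 3 of the CAR and PXR list, Cyp2c6v1, Ephx1 and Cyp2c7. The search covered the 11302 single-symbol probe sets with a mean of at least 6, with Cyp1a1 itself then left out. Pearson's r was highest for Cyp2c6v1 (0.935), Ephx1 (0.935), Cyp2c7 (0.933), the phosphatidylserine synthase Ptdss2 (0.93) and Mmgt1 (0.929). These values describe arrays that fall into 2 clusters by dose, so they mostly state that the same groups were high. Once group means were subtracted none of those 5 was among the closest: Fam53a (0.81), Fbrsl1 (0.69), Slc31a1 (0.654), Steep1 (0.65) and Armc10 (0.65) were. Cyp1a2 followed other genes, Agmo (0.829), Msrb2 (0.799), Gmpr2 (0.797), Fermt2 (0.796) and Bphl (0.792) by level. Within groups its closest were Gins4 (0.852), Itm2b (0.8), Pals2 (0.798), Sppl2a (0.795) and Stard4 (0.794). Each list holds the 5 highest values of a search over 11302 probe sets. How high such values run by selection alone was not tested, nor was shared regulation. Over the 11 arrays kept by the tissue cut, the within-group r with Cyp1a1 was 0.885 for Fam53a and 0.897 for Armc10. It was 0.564 for Fbrsl1, 0.584 for Slc31a1 and 0.534 for Steep1. For the 5 within-group genes of Cyp1a2 it was 0.814 to 0.863. Cyp1a1 and Cyp1a2 themselves had r of 0.626 by level and 0.148 within groups.

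Markers of other cells were set beside these results. Of 10 listed Kupffer cell genes 7 were measured and 4 fell at 50 mg/kg (Cd68 and Cd163 by 0.48, C1qb by 0.57 and C1qc by 0.55, limma adjusted p of 0.00577 to 0.0377), where 0.348% of all probe sets were called lower. The mean of the 7 was 9.66 to 9.86 over the vehicle arrays and 9.07 to 9.45 at 50 mg/kg, groups that did not overlap; of single probe sets, 1.18% lay wholly below vehicle at 50 mg/kg and 0.754% at 15 mg/kg. At 15 mg/kg it was 9.48 to 9.74 and 0 of the 7 passed. The 4 calls at 50 mg/kg became 1 without vehicle replicate 3, vehicle replicate 4 or 50 mg/kg replicate 4, 2 without vehicle replicate 5 or 50 mg/kg replicates 2 or 3, and 0 without the 9 arrays. Against 0.1 mg/kg in place of vehicle, 0 of the 7 Kupffer cell genes passed at 50 mg/kg, with a median of -0.29 and no difference above 0. There 0.0612% of all probe sets were called lower. At 0.1 mg/kg against vehicle 0 of the 7 passed, with a median of -0.19 and no difference above 0 either. The neutrophil and erythroid lists were lower too at 50 mg/kg against vehicle, without a call. The 4 neutrophil genes measured had a median of -0.51 and the 8 erythroid genes -0.38, all below 0. The medians of the endothelial and the stellate cell lists were -0.020 and 0.042. The pericentral hepatocyte list, whose zone is the main site of Cyp1a2 in adult liver, had 10 of 11 genes measured and a mean of 8.53 to 8.81 in vehicle, 8.35 to 8.50 at 15 and 8.45 to 8.62 at 50 mg/kg, so that the 15 mg/kg arrays all lay below vehicle. The mean of the periportal hepatocyte list, with 11 of 11 genes measured, was 11.13 to 11.57 in vehicle, 10.89 to 11.25 at 0.1, 10.74 to 11.07 at 15 and 10.84 to 11.04 at 50 mg/kg, and both upper doses lay wholly below vehicle. At 50 mg/kg 2 of its 11 genes fell, the urea cycle gene Asl by 0.55 (limma adjusted p = 0.0488) and the aldehyde dehydrogenase gene Aldh1b1 by 0.51 (adjusted p = 0.0456), with a list median of -0.20. At 15 mg/kg 0 of the 11 passed, with all 11 differences below 0 and a median of -0.26. The count at 50 mg/kg was 2 without vehicle replicate 4 or without 0.1 mg/kg replicates 3 or 5, 0 or 1 without each other single array, and 0 without the 9 arrays. For 50 against 0.1 mg/kg, where 0.0612% of all probe sets were called lower, 0 of the 11 periportal genes passed. The median there was 0.0089, with 6 differences above 0. At 0.1 mg/kg against vehicle 0 of the 11 passed, with 1 difference above 0 and a median of -0.17. The skeletal muscle mean, over 13 of 14 genes, ran from 4.43 to 8.65 in vehicle and 4.72 to 7.31 at 50 mg/kg. The exocrine pancreas mean, also over 13 of 14 genes, ran from 4.44 to 4.54 in vehicle, 4.47 to 7.15 at 15 and 4.47 to 4.59 at 50 mg/kg. The part of these shifts, in the periportal and pericentral lists too, in the values of Cyp1a2 and Ahr was not tested, beyond the fits without the 9 arrays. In whole liver, fewer cells of a type and less RNA per cell cannot be told apart.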

How the data were processed

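RNA levels were measured on 20 Affymetrix Rat230_2 arrays of liver RNA. The deposited table holds log2 values normalised by RMA, per the submitters' processing notes. RMA makes the arrays' distributions alike and can mask a change shared by most genes, and its values carry no read depth, so the number of arrays limits precision. Of 31099 probe sets, 57 controls were left out. The platform annotation gave 20826 probe sets 1 gene symbol, 436 several and 9780 none, and only the first kind is named. RefSeq for GRCr8 matched 20758 of them by gene.

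Groups came from the labels. One limma fit (version 3.58.1, R 4.3.3) over all 20 arrays and 31042 probe sets gave each contrast, with Benjamini-Hochberg adjustment per contrast, called at an adjusted p under 0.05. The series text names R/maanova for its own test. Data were simulated for 50 mg/kg against vehicle over 31042 probe sets, with independent normal noise in each. There the fit recovered 74% of log2 changes of 0.5, 96% of 1 and 100% of 2, with 11 false calls. Variation shared between probe sets, as in muscle transcripts, was not simulated, so these rates may not hold for the deposited arrays. The Cyp1a1 minus Cyp1a2 difference was tested by exact permutation. Of each pathway list, the text names up to 4 genes with the smallest p at 50 mg/kg, plus index genes, each by its brightest probe set; Por was named, and the 4 Kupffer cell and 2 periportal genes that fell, after their values were seen. Members and lists were chosen with earlier results of these data known. Alternatives were a replicate block, a block by the first digit of each description's number, only the groups compared, other normalisation and scaling, a filter at a mean of 6, other variance models, array weights, tissue and actin covariates, and leaving arrays out. Deviations from the group means had correlations of -0.362 to 0.288 between same-numbered arrays (30 pairs, median 0.00119). The median was -0.00362 for the other pairs and 0.0423 for pairs that share the first digit of the description's number. Such values cannot settle whether a number marks a litter or a day, and the main fit used no pairing.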

Additional observations from a re-analysis of the deposited data

Results flagged for a closer look

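In 4 of 36 group and probe set combinations, 1 array lay apart from the other 4 by a gap above Dixon's 95% critical value of 0.71 of the group's range; chance alone does this in about 1 in 20 groups. Cyp1a1 on 0.1 mg/kg replicate 4 was 8.05, above the next highest at 7.49. Cyp1b1 was low on vehicle replicate 5, at 4.30 with the next at 4.69, and on 15 mg/kg replicate 4, at 4.74 with the next at 4.88. Ahrr was low on 0.1 mg/kg replicate 2, at 3.27 with the next at 3.63.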

How the results depend on the processing

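Cyp1a1 was called at 50 and at 15 mg/kg against vehicle with each array left out and under all 11 other settings. Member counts moved as follows with 1 array left out: 1 to 2 at 50 mg/kg and 1 to 3 over the dose order, where Cyp1a2 came in or Ahr went out. Over all probe sets, leaving out 1 array gave 106 to 276 calls at 50 mg/kg (290 with all), 14 to 44 at 15 mg/kg (36), 0 to 1 at 0.1 mg/kg (0), 107 to 220 for 50 against 0.1 mg/kg (200) and 232 to 487 over the dose order (449); the lowest of each came without 50 mg/kg replicate 4, or 15 mg/kg replicate 5 for 15 mg/kg. Fitting only the groups compared gave 89 calls at 50 and 11 at 15 mg/kg, the actin covariate 193 at 50 mg/kg and 119 for 50 against 0.1 mg/kg, and the muscle and pancreas covariates 16 at 15 mg/kg and 124 for 50 against 0.1 mg/kg. Without the 9 arrays with muscle or pancreas transcripts, which left 4, 1, 3 and 3 arrays, the counts were 21 at 50, 7 at 15, 3 for 50 against 0.1, 1 for 15 against 0.1 mg/kg and 33 over the dose order; members called were 0 for 15 against 0.1 mg/kg (Cyp1a1 2.78) and 1 over the dose order. Fewer arrays were tested there; beyond that the cause was not tested. The Cyp1a1 minus Cyp1a2 difference ran with 1 array left out from 0.90 to 1.61 at 15 mg/kg and from -0.91 (called, without vehicle replicate 5, adjusted p = 0.0357) to -0.20 at 0.1 mg/kg. With the replicate block its values stayed 1.33 and 2.40 with an adjusted exact p of 0.0938, where 5 pairs cannot go below a raw 0.0625, and without the 9 arrays they were 1.19 and 2.51. Both genes have 1 probe set, so the alternative of other probe set pairs could not be run. Signs turned only in uncalled values near 0. Without the 9 arrays these were Cyp1b1 at 0.1 mg/kg (0.00363), the dimmer Ahr probe set at 0.1 mg/kg (-0.023), the brighter Tiparp probe set at 50 mg/kg (-0.054), Fmo1 (0.020) and Hsp90ab1 (0.12). With array weights they were Cyp1a2 between 15 and 50 mg/kg (0.00713), Tiparp at 0.1 mg/kg (0.00352), Nqo1 at 15 mg/kg (-0.013) and Inmt (-0.038). The actin covariate gave the dimmer Ahr probe set -0.00824, Arnt -0.012 and Hsp90ab1 0.031 at 50 mg/kg, the muscle and pancreas covariates gave Arnt -0.019, another quantile normalisation gave Arnt -0.013, and the block by description digit gave Ahr 0.00636 at 0.1 mg/kg. With 1 array left out, the ranges of values that changed sign were -0.24 to 0.17 for Cyp1a2 between 15 and 50 mg/kg, -0.091 to 0.023 for Cyp1b1 at 0.1 mg/kg, -0.18 to 0.062 and -0.22 to 0.035 for the brighter Ahr probe set at 0.1 mg/kg and between 15 and 50 mg/kg, -0.029 to 0.060 for the dimmer one at 50 mg/kg, -0.034 to 0.061 and -0.055 to 0.047 for Arnt at 50 and 0.1 mg/kg, -0.00226 to 0.14 for Ahrr at 15 mg/kg, -0.13 to 0.025 and -0.040 to 0.19 for Tiparp at 0.1 (brighter) and 50 mg/kg (dimmer), -0.048 to 0.20 for Nqo1 and -0.015 to 0.26 for Per2 at 15 mg/kg, and -0.046 to 0.083 for Inmt and -0.11 to 0.10 for Hsp90ab1 at 50 mg/kg. The settings for list counts, Por, the Kupffer cell and periportal genes and the further contrasts of Nqo1, Gsta1 and Htatip2 were chosen after seeing the data. Levels toward the dim end, as for Ahrr, Aldh3a1, Inmt, Npas1, Npas3, Arnt, Cyp1b1 and the dimmer Ahr probe set, limit what change can be seen.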
